A study of Mus musculus with 16 samples.

Results

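Neuromodulator and metabotropic receptors are the proteins through which serotonin, dopamine, noradrenaline, acetylcholine, neuropeptides, endocannabinoids, adenosine and, slowly, glutamate and GABA tune a neuron. The receptor genes described here were those whose symbol in the array annotation began with Htr, Drd, Adra, Adrb, Chrm, Grm, Opr (d, k, m or l), Gabbr, Sstr, Npy (with a number and r), Cnr or Adora. This name rule used no measured value. It gave 46 genes with 80 probe sets, of 18194 genes on the array. They comprised 13 serotonin receptor genes, 6 metabotropic glutamate, 5 somatostatin, 5 neuropeptide Y, 4 dopamine, 4 opioid and nociceptin, 3 muscarinic, 2 alpha adrenoceptor and 2 cannabinoid receptor genes, and 1 each for GABA-B and adenosine. Beta adrenoceptors were not analysed here.

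Nearly all of these proteins are G protein-coupled receptors. Receptors that couple to Gs, such as the dopamine receptor D1, raise cyclic AMP. Receptors that couple to Gi or Go, such as the somatostatin, opioid, cannabinoid and most presynaptic receptors, lower cyclic AMP, open G protein-gated potassium channels and restrain calcium channels. Receptors that couple to Gq, such as mGluR5, the muscarinic receptor M1 and the serotonin receptor 5-HT2C, activate phospholipase C. Htr3a and Htr3b are exceptions in the set, since the 5-HT3 receptor they encode is a ligand-gated ion channel.

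The cells were cultured cortical neurons of C57BL/6 mice, taken at embryonic day 16.5 and infected on day 5 in vitro, in the presence of 6 µg per ml polybrene for 6 h. One lentivirus carried an shRNA against c-Fos, which forms AP-1 transcription factors with Jun proteins, and the other a control shRNA against firefly luciferase, so that both arms were infected. On day 7 in vitro, after a period of silencing, KCl was used to depolarise the neurons for 0, 1, 3 or 6 h. The 8 groups held 2 arrays each, 16 in all. Arrays of one group are named bioreplicates in the labels, with no separate dissections named, so p-values cover only the spread between these arrays, which may be technical. Whole cultures were measured, so fewer cells of a type and less RNA per cell cannot be told apart.

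Fos was lower with the c-Fos shRNA at each time. Its intensity, the brightness of its probe set, was 261 and 232 at 0 h with control shRNA and 118 and 152 with c-Fos shRNA, and 11960 and 11898 against 3142 and 3340 at 6 h. In limma the log2 difference was -0.77 at 0 h (adjusted p = 0.000172), and by 6 h it was -1.85 (adjusted p = 5.22e-07). Neuronal genes were bright: the 9 pan-neuronal markers summed to between 72353 and 89210 on the 16 arrays. Markers of astrocytes (summed intensity 19238 to 30358), of the oligodendrocyte lineage (9194 to 17588) and of progenitors and dividing cells (16794 to 24227) were present too, while 2 of 8 microglial markers passed the filter on dim genes (314 to 471). The correlation between the 2 arrays of a group ran from 0.9906 to 0.9939.

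Many of the receptor genes were near background. Each gene was read through its brightest probe set, and a gene was tested where the mean of that probe set lay above the 30th percentile of all probe sets, 5.786 on the scale of log2(intensity + 16). This left 33 of the 46 genes, or 71.7%, beside 76.5% of all genes on the array. The 13 genes not tested were Cnr2, Npy6r, Sstr1, Drd3, Htr5b, Drd4, Htr2b, Oprd1, Htr3b, Sstr3, Adra1b, Htr6 and Chrm4, with intensities of 1.6 to 96.0 over all arrays. Just on the dim side of the threshold lay Chrm4, with a mean of 5.69, and just on the bright side Adora3, with 5.88.

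A second yardstick came from 129 probe sets of olfactory, vomeronasal and taste receptors and keratin-associated proteins, families that cortical neurons are not known for. The highest group mean of these probe sets was at or under 117 for 95% of them, with a median of 23.9. By this measure 23 of the 46 receptor genes were near background. They were the 13 above and 10 that were tested, namely Adora3, Drd2, Grm8, Htr1d, Htr3a, Htr4, Npy4r, Oprk1, Oprm1 and Sstr5. The other 23 genes exceeded both measures, the second by their highest group mean. Some lay under 117 in other groups: the lowest arrays of Htr1f, Npy2r and Npy5r were 34.5, 34.5 and 30.5. Cnr1 ran between 3961 and 8303 and Gabbr1 between 5309 and 7288. Intensities of different probe sets are not on a common scale, so these ranges place each gene against background and not against other receptors.

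**Figure D1:**
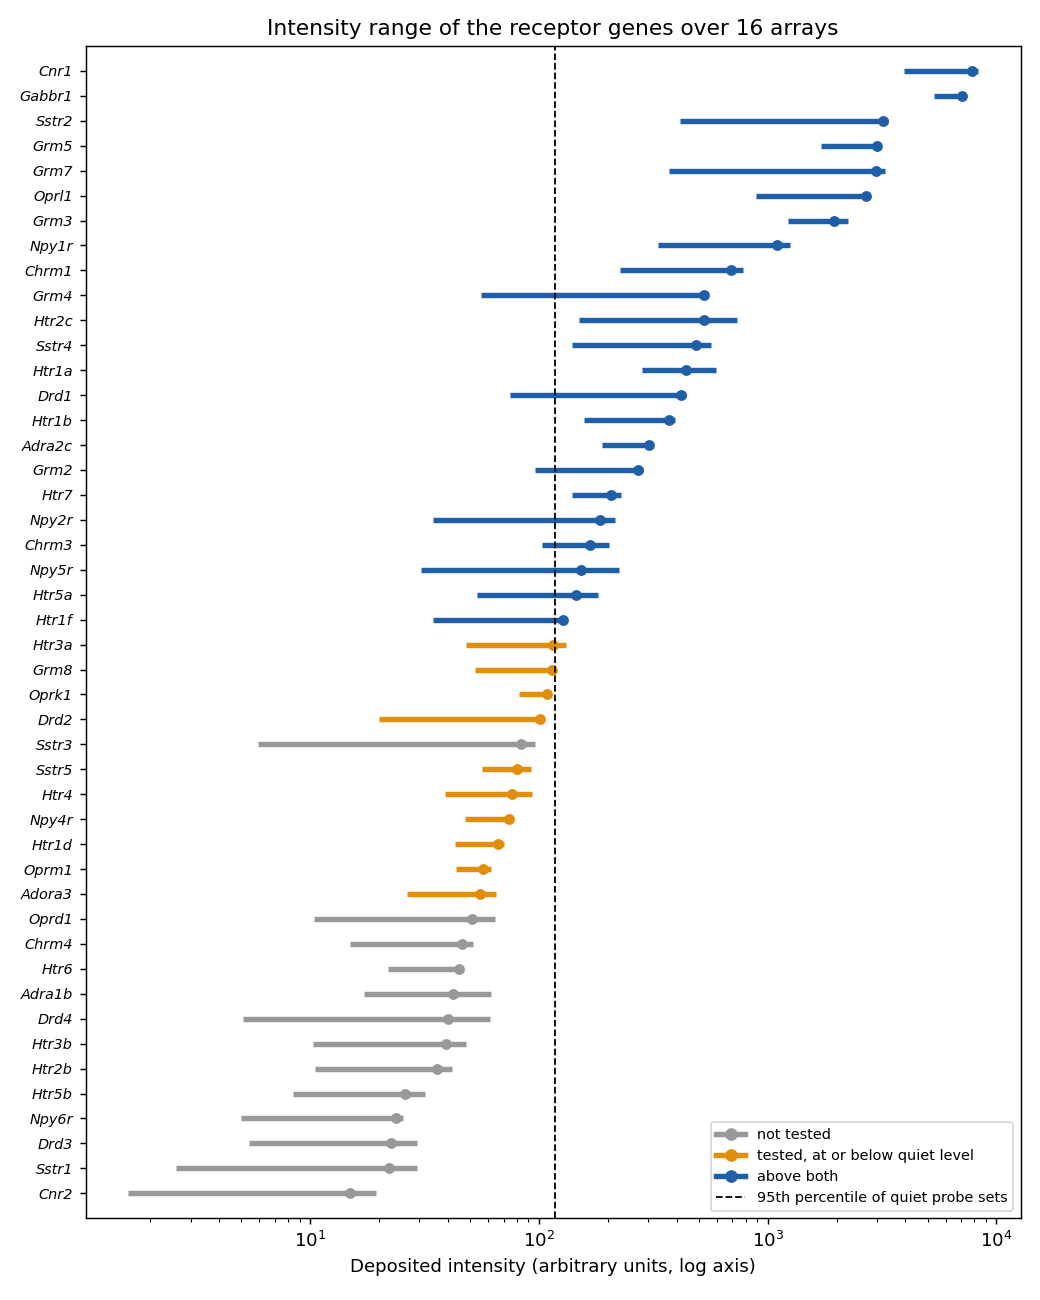
Deposited intensity (log axis) of the 46 receptor genes, one row each by its brightest probe set, with a bar from the lowest to the highest of 16 arrays and a point at the highest group mean. The dashed line is the quiet level of 117. Grey bars are the 13 genes not tested. Orange bars are the 10 tested genes whose highest group mean is at or below the line, and blue bars the 23 genes with it above.

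Depolarisation changed single receptor genes in both directions, and Sstr2 by most. With control shRNA at 6 h, 7 receptor genes rose (Sstr2, Npy1r, Htr1f, Drd1, Cnr1, Adora3 and Gabbr1) and 7 fell (Grm7, Oprl1, Npy2r, Grm4, Drd2, Grm5 and Grm8). Of all genes tested, 16.7% rose and 27.3% fell there. With c-Fos shRNA at 6 h, 6 rose (Sstr2, Npy1r, Drd1, Htr1f, Grm2 and Gabbr1) and 6 fell (Grm4, Oprl1, Drd2, Sstr4, Grm7 and Grm5), against 16.1% and 24.9% of all genes. Each gene is counted by its brightest probe set, and a second probe set of Grm7 rose. Members of one family moved apart at 6 h. Among the somatostatin receptors Sstr2 rose and, with c-Fos shRNA, Sstr4 fell (-0.19 with control shRNA, not called). Among the neuropeptide Y receptors Npy1r rose and, with control shRNA, Npy2r fell (with c-Fos shRNA called only with the replicate block described below). Among the dopamine receptors Drd1 rose and Drd2, which was near background, fell.

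A gene was called at an adjusted p under 0.05, over the 13916 genes tested in a comparison. With control shRNA, 14 of the 33 tested receptor genes were called at 6 h, where 44.1% of all genes were called. At 3 h it was 9 receptor genes against 30.3% of all genes, and at 1 h 3 against 3.12%. With c-Fos shRNA, 12 were called at 6 h, 5 at 3 h and 2 at 1 h, against 41%, 28.2% and 3.36% of all genes. The 9 were 5 without control 0 h replicate 2 or control 3 h replicate 1, and the calls at 1 h were 1 in each arm without any 1 array of their groups, save 2 without control 1 h replicate 2. At 3 and 6 h the share of the receptor genes was near or below that of all genes, and the few calls at 1 h allow no reading of their share. The median receptor gene moved by -0.05 at 6 h with control shRNA and by 0.04 with c-Fos shRNA, and the median of all genes by -0.07 and -0.06. The 3 times of an arm share their 0 h arrays.

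Same-numbered replicates of different groups deviated together, so a second fit held the replicate number as a block. The fits with 1 array left out were made without this block. In them the shared deviation of a replicate number enters the changes of the group left with 1 array. Where the block changes the call of a value printed here, its adjusted p is given beside it, and the plot of log2 changes marks every receptor gene that only the block called for KCl or at a single time of shRNA. With it, the counts were 5, 15 and 17 receptor genes at 1, 3 and 6 h with control shRNA, against 8.15%, 44.4% and 56.9% of all genes. With c-Fos shRNA they were 4, 11 and 14, against 8.33%, 42.9% and 55%.

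**Figure D2:**
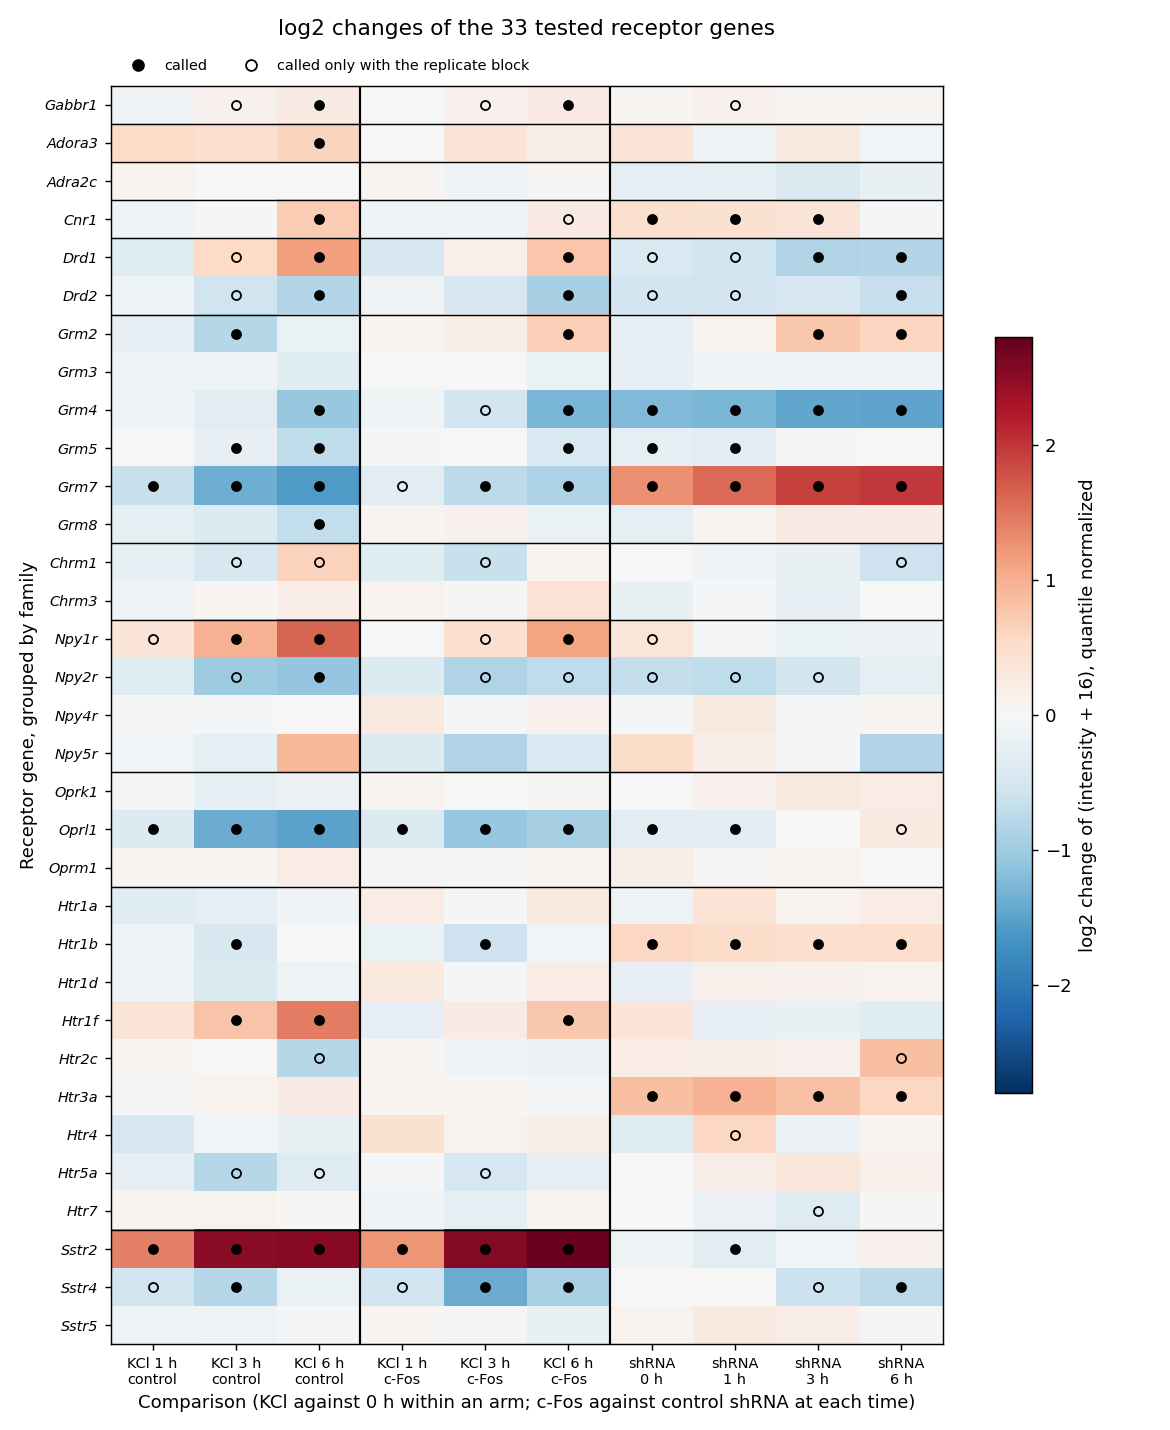
log2 changes of the 33 tested receptor genes (rows, grouped by family) in 10 comparisons (columns): KCl against 0 h in each shRNA arm, and c-Fos against control shRNA at each time. Filled circles mark calls and open circles calls made only with the replicate block. Sstr2 stands out in the KCl columns, and Grm7 and Grm4 in the shRNA columns.

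Sstr2, the Gi-coupled somatostatin receptor, rose within 1 h and stayed high. Its intensity with control shRNA was 504 and 494 at 0 h, 1467 and 1321 at 1 h, 3120 and 2795 at 3 h, then 2801 and 3076 at 6 h. In the c-Fos arm it read 415 and 512, then 1140 and 1089, 2769 and 2748, and 3001 and 3353. Arrays at 1 h lay above those at 0 h, and arrays at 3 and 6 h above those at 1 h, in both arms. The log2 change with control shRNA was 1.41 ± 0.09 (SE) at 1 h (adjusted p = 8.92e-07), 2.53 at 3 h and 2.54 at 6 h (adjusted p = 2.18e-09). With c-Fos shRNA it was 1.23, 2.56 and 2.77. The ratio of mean intensities at 6 h to 0 h was 5.89 with control and 6.85 with c-Fos shRNA. The difference between the arms in the 6 h change was 0.23, with a 95% interval from -0.05 to 0.51.

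Sstr2 was also the receptor gene whose promoter window held the full cyclic AMP response element TGACGTCA, the site of CREB-family factors. This motif reads the same on both strands. RefSeq windows of 250 bases before to 50 after the start (GRCm38.p6) were at hand for 36 of the 46 genes, in 51 windows. TGACGTCA was in 1 of these and in 1.79% of 32851 windows of all genes. The 250 bases before the Sstr2 start are chr11:113619077-113619326 on the plus strand, upstream of the transcribed gene, shown because Sstr2 changed most with KCl. The motif, in capitals, begins at position -58.

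Sstr2: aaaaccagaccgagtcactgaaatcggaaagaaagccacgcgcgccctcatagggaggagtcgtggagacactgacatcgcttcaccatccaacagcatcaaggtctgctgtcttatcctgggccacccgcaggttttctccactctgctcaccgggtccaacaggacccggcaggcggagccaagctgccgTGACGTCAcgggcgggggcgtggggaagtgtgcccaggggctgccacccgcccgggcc

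A match is a description of these letters and shows no binding. No binding was measured here.

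Sstr4, another Gi-coupled somatostatin receptor, fell at 3 h in both arms. Its control shRNA intensity was 405 and 567 at 0 h, 291 and 374 at 1 h, 232 and 300 at 3 h, then 342 and 457 at 6 h. The c-Fos shRNA intensity was 418 and 528, then 256 and 388, 139 and 195, and 197 and 276. The 3 h and 0 h arrays did not overlap in either arm, and the 6 h and 0 h arrays overlapped in the control arm but not in the c-Fos arm. The log2 change at 3 h was -0.79 ± 0.23 (SE) with control (adjusted p = 0.0202) and -1.38 with c-Fos shRNA (adjusted p = 0.000631). The control call was lost without control 0 h replicate 2 or control 3 h replicate 1 (adjusted p up to 0.173). At 6 h the change was -0.19 with control and -0.90 with c-Fos shRNA (adjusted p = 0.00702, and up to 0.0658 without c-Fos 0 h replicate 2 or c-Fos 6 h replicate 1). Sstr5 was not called in any comparison, and Sstr1 and Sstr3 were not tested.

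Npy1r, the Gi-coupled Y1 receptor for neuropeptide Y, rose through 6 h. Its control shRNA intensity was 385 and 333 at 0 h, 567 and 415 at 1 h, 765 and 634 at 3 h, then 1256 and 947 at 6 h. The c-Fos shRNA arrays read 493 and 420, then 534 and 402, 610 and 599, and 1081 and 873. The 3 and 6 h arrays lay above the 0 h arrays in both arms. The log2 change with control shRNA was 0.98 ± 0.21 (SE) at 3 h (adjusted p = 0.00317), and by 6 h it was 1.62 (adjusted p = 4.56e-05). With c-Fos shRNA it was 0.45 at 3 h (adjusted p = 0.138, and 0.000749 with the replicate block) and 1.11 at 6 h (adjusted p = 0.000976). A second, dimmer probe set of Npy1r gave 0.08 ± 0.70 (SE) at 6 h with control shRNA and was not called.

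The promoter window of Npy1r held the AP-1 motif TGANTCA, where N is any base. The match, TGAGTCA, begins at position -231 of chr8:66697172-66697421 on the plus strand (GRCm38.p6, RefSeq), upstream of the transcribed gene. It is shown because AP-1 holds c-Fos and Npy1r rose at 6 h in both arms. The part of this match in that rise was not tested.

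Npy1r: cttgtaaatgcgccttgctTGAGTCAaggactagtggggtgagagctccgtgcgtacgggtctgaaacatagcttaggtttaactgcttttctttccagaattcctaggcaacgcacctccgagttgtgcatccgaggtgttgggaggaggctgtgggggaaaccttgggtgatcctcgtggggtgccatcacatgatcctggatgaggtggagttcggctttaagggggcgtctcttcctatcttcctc

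TGANTCA was in 7.81% of all windows, on either strand, and in 6 of the 51 windows of receptor genes. The matches were TGAGTCA in Npy1r and Adra1b, TGACTCA in Adora3, TGAATCA in Htr2b and Htr2c, and TGATTCA in Grm8. The share of all windows likewise pools matches with any middle base. Of these genes, Htr2b and Adra1b were not tested, and Adora3 and Grm8 were near the quiet level.

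Npy2r, the Y2 receptor, which acts as an autoreceptor on nerve terminals, fell after KCl, with c-Fos shRNA called only with the replicate block. Its control shRNA intensity was 156 and 215 at 0 h, 121 and 161 at 1 h, 66.3 and 102 at 3 h, then 62.6 and 90.4 at 6 h. Under c-Fos shRNA it was 84.8 and 132, then 66.8 and 84.5, 34.5 and 75.7, and 35.2 and 96.8. In the control arm the 3 and 6 h arrays lay below both 0 h arrays, while in the c-Fos arm the 6 h and 0 h arrays overlapped. Within each replicate number the c-Fos shRNA arrays at 3 and 6 h lay below the one at 0 h. The block called Npy2r lower at both times in that arm. All 3 and 6 h arrays lay under the quiet level of 117. The 6 h change with control shRNA was -1.09 (adjusted p = 0.0244), and it was lost without control 0 h replicate 2 or control 6 h replicate 1 (adjusted p up to 0.147). At 3 h the change was -0.99 (adjusted p = 0.0527, and 0.00028 with the replicate block). Npy5r showed a wide spread, with 81.4 and 224 at 6 h with control shRNA, and was not called.

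Oprl1, the Gi-coupled receptor for nociceptin, fell from 1 h on. With control shRNA the intensity was 2641 and 2711 at 0 h, 2094 and 2196 at 1 h, 1066 and 966 at 3 h, then 885 and 979 at 6 h. In the c-Fos arm it read 2146 and 2216, then 1781 and 1673, 946 and 1114, and 1074 and 1186. Each later pair of arrays lay below the 0 h pair in both arms. The log2 change with control shRNA was -0.38 ± 0.09 (SE) at 1 h (adjusted p = 0.0315), -1.39 at 3 h and -1.49 at 6 h (adjusted p = 8.09e-08). With c-Fos shRNA it was -0.38 (adjusted p = 0.0308), -1.07 and -0.94 (adjusted p = 3.8e-06). The 1 h calls of both arms were lost whichever array of the compared groups was left out (adjusted p up to 0.26), and with arrays not normalized further or shifted to one median. Its other 2 tested probe sets fell at 6 h with control shRNA too, by -1.20 and -1.54, and with c-Fos shRNA, by -0.81 and -0.73. At 1 h 1 of them was called, with control shRNA (-0.46, adjusted p = 0.0244). Oprk1 and Oprm1, the kappa and mu opioid receptor genes, were near background and not called, and Oprd1 was not tested.

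Grm7 encodes mGluR7, a Gi-coupled presynaptic glutamate receptor, and its brightest probe set (1443119_at) fell after KCl whichever shRNA was present. With control shRNA the intensity was 1213 and 1233 at 0 h, 744 and 934 at 1 h, 461 and 453 at 3 h, then 369 and 403 at 6 h. The c-Fos shRNA arrays read 2686 and 3257, then 2210 and 2672, 1565 and 2003, and 1449 and 1802. Every c-Fos shRNA array lay above every control shRNA array, and later arrays lay below the 0 h arrays of their arm, at 1 h with c-Fos shRNA by a narrow margin (2672 against 2686). The log2 change at 6 h was -1.58 ± 0.14 (SE) with control (adjusted p = 2.8e-06) and -0.87 with c-Fos shRNA (adjusted p = 0.000389). At 1 h it was -0.63 with control shRNA (adjusted p = 0.0322), a call lost without control 0 h replicate 1, control 0 h replicate 2 or control 1 h replicate 1 (adjusted p up to 0.362), with arrays not normalized further, and without the intensity trend in limma.

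A second probe set of Grm7, 1458861_at, went the other way. Its control shRNA intensity was 92 and 101 at 0 h, 189 and 208 at 1 h, 317 and 344 at 3 h, then 279 and 359 at 6 h. Under c-Fos shRNA it was 96.3 and 85.9, then 135 and 128, 250 and 253, and 242 and 271. These arrays rose where those of the brightest probe set fell, by 1.64 on the log2 scale at 6 h with control shRNA (adjusted p = 1.76e-06) and by 1.37 with c-Fos shRNA (adjusted p = 8.54e-06). The remaining probe set, 1459532_at, stayed between 18.3 and 71. Grm7 was the 1 receptor gene with calls in opposite directions, among 12 with more than 1 tested probe set. Which transcript each probe set reads was not analysed here, so no direction is given for Grm7 as a gene.

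**Figure D3:**
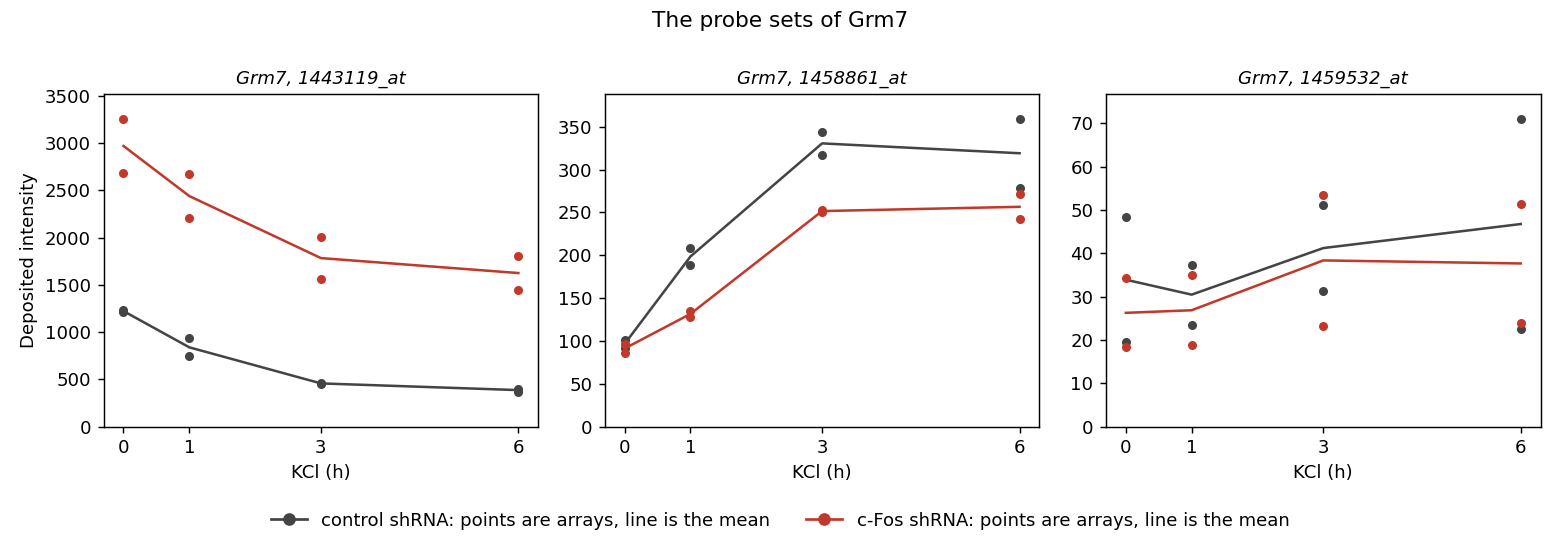
Deposited intensity of the 3 Grm7 probe sets (one panel each, own vertical axis from 0) over hours of KCl, with control shRNA in grey and c-Fos shRNA in red. Points are arrays and lines group means. The brightest probe set falls with KCl and is higher with c-Fos shRNA, while 1458861_at rises with KCl in both arms.

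On their brightest probe sets, Grm4 and Grm5 fell at 6 h in both arms. Grm4 encodes mGluR4, a Gi-coupled presynaptic receptor. Its intensity was 522 and 531 at 0 h, 496 and 528 at 1 h, 439 and 374 at 3 h, then 228 and 238 at 6 h with control shRNA. In the c-Fos arm it read 184 and 239, then 140 and 263, 115 and 163, and 55.9 and 104. The 6 h arrays lay below all others of their arm. The 6 h change was -1.06 ± 0.24 (SE) with control (adjusted p = 0.00343) and -1.29 with c-Fos shRNA (adjusted p = 0.00107). Grm5 encodes mGluR5, a Gq-coupled postsynaptic receptor, and its control shRNA intensity was 2798 and 2977 at 0 h, 3026 and 3007 at 1 h, 2416 and 2663 at 3 h, then 1703 and 1874 at 6 h. The c-Fos shRNA arrays of Grm5 gave 2423 and 2437, then 2422 and 2397, 2344 and 2464, and 1740 and 1841. In both arms the 6 h arrays lay below all others. The 6 h change was -0.70 ± 0.06 (SE) with control (adjusted p = 3.46e-06) and -0.43 with c-Fos shRNA (adjusted p = 0.000197). A second Grm5 probe set, 1456119_at, gave -0.65 with control shRNA (adjusted p = 0.0206) and -0.19 with c-Fos shRNA (adjusted p = 0.511) at 6 h, and -0.07 at 3 h with control shRNA (adjusted p = 0.869). At 3 h Grm5 changed by -0.22 with control shRNA (adjusted p = 0.0228), a call lost without control 0 h replicate 2 or control 3 h replicate 1 (adjusted p up to 0.199) and with arrays not normalized further or shifted to one median.

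Grm2, which encodes the Gi-coupled mGluR2, was called at 3 h in the control arm and at 6 h in the c-Fos arm, while the difference between the arms was called only with the replicate block (adjusted p = 0.0126 at 3 h and 0.0177 at 6 h, against 0.117 and 0.119 without). With control shRNA it was 223 and 195 at 0 h, 194 and 165 at 1 h, 95.9 and 127 at 3 h, then 185 and 166 at 6 h. The c-Fos shRNA arrays read 169 and 172, then 173 and 203, 217 and 174, and 286 and 255. Its lowest arrays were those at 3 h with control shRNA, and its highest those at 6 h with c-Fos shRNA. It fell at 3 h with control shRNA, by -0.80 ± 0.17 (SE) on the log2 scale (adjusted p = 0.0031), and rose at 6 h with c-Fos shRNA, by 0.66 (adjusted p = 0.00755, and up to 0.0805 without c-Fos 6 h replicate 1). Grm8, which encodes the presynaptic mGluR8, was dim, at 112 and 117 at 0 h, 93 and 89.4 at 1 h, 73.7 and 93.8 at 3 h, then 78.9 and 52.5 at 6 h with control shRNA. Its c-Fos shRNA arrays gave 94.2 and 84.9, then 98.1 and 91.4, 96.2 and 101, and 75.7 and 78.7. Grm8 fell at 6 h with control shRNA (-0.68, adjusted p = 0.00656, and up to 0.079 without control 6 h replicate 2). Grm3, which encodes mGluR3 and was bright at 1222 to 2249, was not called in any comparison without the block. With the block it was called lower at 6 h of KCl on the average of both arms.

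Among the serotonin receptors, Htr1f rose. It encodes 5-HT1F, a Gi-coupled receptor. With control shRNA its intensity was 39.1 and 34.5 at 0 h, 53 and 51.2 at 1 h, 77.6 and 74.6 at 3 h, then 133 and 121 at 6 h. Under c-Fos shRNA it was 64.9 and 40.5, then 45.3 and 37.3, 74.2 and 54, and 96.8 and 98.3. The control arrays at each time lay above those of the time before, and in the c-Fos arm the 6 h arrays lay above the rest. Only the control arrays at 6 h exceeded the quiet level of 117. The change at 6 h was 1.44 ± 0.21 (SE) with control (adjusted p = 0.000112) and 0.75 with c-Fos shRNA (adjusted p = 0.0113). The 3 h change with control shRNA was 0.79 (adjusted p = 0.0112). The last 2 calls were lost without replicate 2 at 0 h or replicate 1 at the later time of their arm (adjusted p up to 0.0705 for control at 3 h and 0.133 for c-Fos at 6 h).

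Htr1b, which encodes the Gi-coupled terminal receptor 5-HT1B, fell at 3 h and was not called at 6 h. Its control shRNA intensity was 237 and 251 at 0 h, 157 and 187 at 3 h, then 224 and 246 at 6 h. The c-Fos shRNA intensity was 347 and 393, then 237 and 236, and 316 and 355. The 3 h arrays lay below the 0 h arrays in both arms. The change at 3 h was -0.44 ± 0.12 (SE) with control (adjusted p = 0.0145, and up to 0.137 without control 0 h replicate 2 or control 3 h replicate 1) and -0.57 with c-Fos shRNA (adjusted p = 0.00312). A second, dimmer tested probe set of Htr1b gave -0.01 and -0.08 and was not called. The other 7 tested serotonin receptor genes, Htr1a, Htr1d, Htr2c, Htr3a, Htr4, Htr5a and Htr7, were not called for KCl without the block. The replicate block called Htr5a lower at 3 h in both arms and at 6 h with control shRNA, and Htr2c lower at 6 h with control shRNA.

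Drd1 and Drd2 encode the Gs-coupled and Gi-coupled dopamine receptors that mark the output neurons of the striatum and are also found in cortex. Drd1 intensity with control shRNA was 174 and 211 at 0 h, 127 and 172 at 1 h, 278 and 274 at 3 h, then 441 and 393 at 6 h. In the c-Fos arm it read 117 and 152, then 74.7 and 112, 115 and 186, and 187 and 289. The 6 h arrays lay above the 0 h arrays in both arms, and the control arrays above the c-Fos arrays at each time. It rose by 1.15 at 6 h with control (adjusted p = 0.001) and by 0.77 with c-Fos shRNA (adjusted p = 0.0144, and up to 0.129 without c-Fos 0 h replicate 1 or c-Fos 6 h replicate 2). A second Drd1 probe set, 1455629_at, gave 0.99 with control shRNA (adjusted p = 0.0109) and 0.63 with c-Fos shRNA (adjusted p = 0.0878). Drd2 was at the quiet level: its control shRNA arrays gave 99.2 and 102 at 0 h, 89.3 and 92.5 at 1 h, 58.5 and 66.8 at 3 h, then 47.4 and 50.9 at 6 h. Its c-Fos shRNA arrays gave 49.6 and 78.2, then 47 and 68.5, 36.7 and 44.1, and 31.3 and 20. The 6 h arrays were the lowest of each arm. Its 6 h change was -0.83 (adjusted p = 0.00488) and -0.93 (adjusted p = 0.00264). Drd3 and Drd4 were not tested.

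Cnr1 encodes CB1, the presynaptic Gi-coupled cannabinoid receptor. It rose at 6 h with control shRNA, from 4282 and 5103 at 0 h, 3961 and 4882 at 1 h, then 4723 and 4507 at 3 h, to 8303 and 7406. The c-Fos shRNA arrays read 6034 and 6655, then 5618 and 6196, 5833 and 6051, and 8119 and 7244. The 6 h arrays lay above all others of their arm, and the arms met there after differing at 0 h. The 6 h change was 0.71 ± 0.11 (SE) with control (adjusted p = 0.000164) and 0.24 with c-Fos shRNA (adjusted p = 0.0982, and 0.0425 with the replicate block). A second Cnr1 probe set rose by 1.47 and 1.00, and with control shRNA it was higher at 3 h already (0.83, adjusted p = 0.0102), where the brightest gave -0.06. Gabbr1, which encodes the ligand-binding subunit of the Gi-coupled GABA-B receptor, was 5395 and 5987 at 0 h, 5309 and 5627 at 1 h, 6087 and 6560 at 3 h, then 6663 and 7081 at 6 h with control shRNA. Its c-Fos shRNA arrays gave 5673 and 6164, then 5585 and 6338, 6304 and 6878, and 6848 and 7288. The 6 h arrays lay above the 0 h arrays in both arms. It rose by 0.23 (adjusted p = 0.0119, and up to 0.11 without control 0 h replicate 1 or control 6 h replicate 2) and 0.22 (adjusted p = 0.0149, and up to 0.0969 without c-Fos 0 h replicate 1 or c-Fos 6 h replicate 2). The other 2 tested Gabbr1 probe sets differed in size. The first, 1422051_a_at, rose by 0.65 at 3 h and 0.74 at 6 h with control shRNA and by 0.36 at 6 h with c-Fos shRNA (adjusted p = 0.00098, 0.000225 and 0.0222). The second, 1437188_at, gave 0.23 and 0.07 at 6 h and was not called (adjusted p = 0.0717 and 0.624). Adora3, the adenosine A3 receptor gene, was dim, at 26.6 and 26.7 at 0 h, 35.4 and 57.3 at 1 h, 36.6 and 52.5 at 3 h, then 44.4 and 58.7 at 6 h with control shRNA. Its c-Fos shRNA arrays gave 35.7 and 42.7, then 41.5 and 36.2, 44.9 and 65.1, and 54.3 and 39.2, with overlap of 6 h and 0 h. In the control arm the later arrays lay above those at 0 h. The Adora3 change of 0.63 at 6 h (adjusted p = 0.041) was lost whichever array of these 2 groups was left out (adjusted p up to 0.204), and with a pseudocount of 64. Chrm1, the Gq-coupled M1 muscarinic receptor gene, Chrm3 and Adra2c were not called for KCl without the block.

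**Figure D4:**
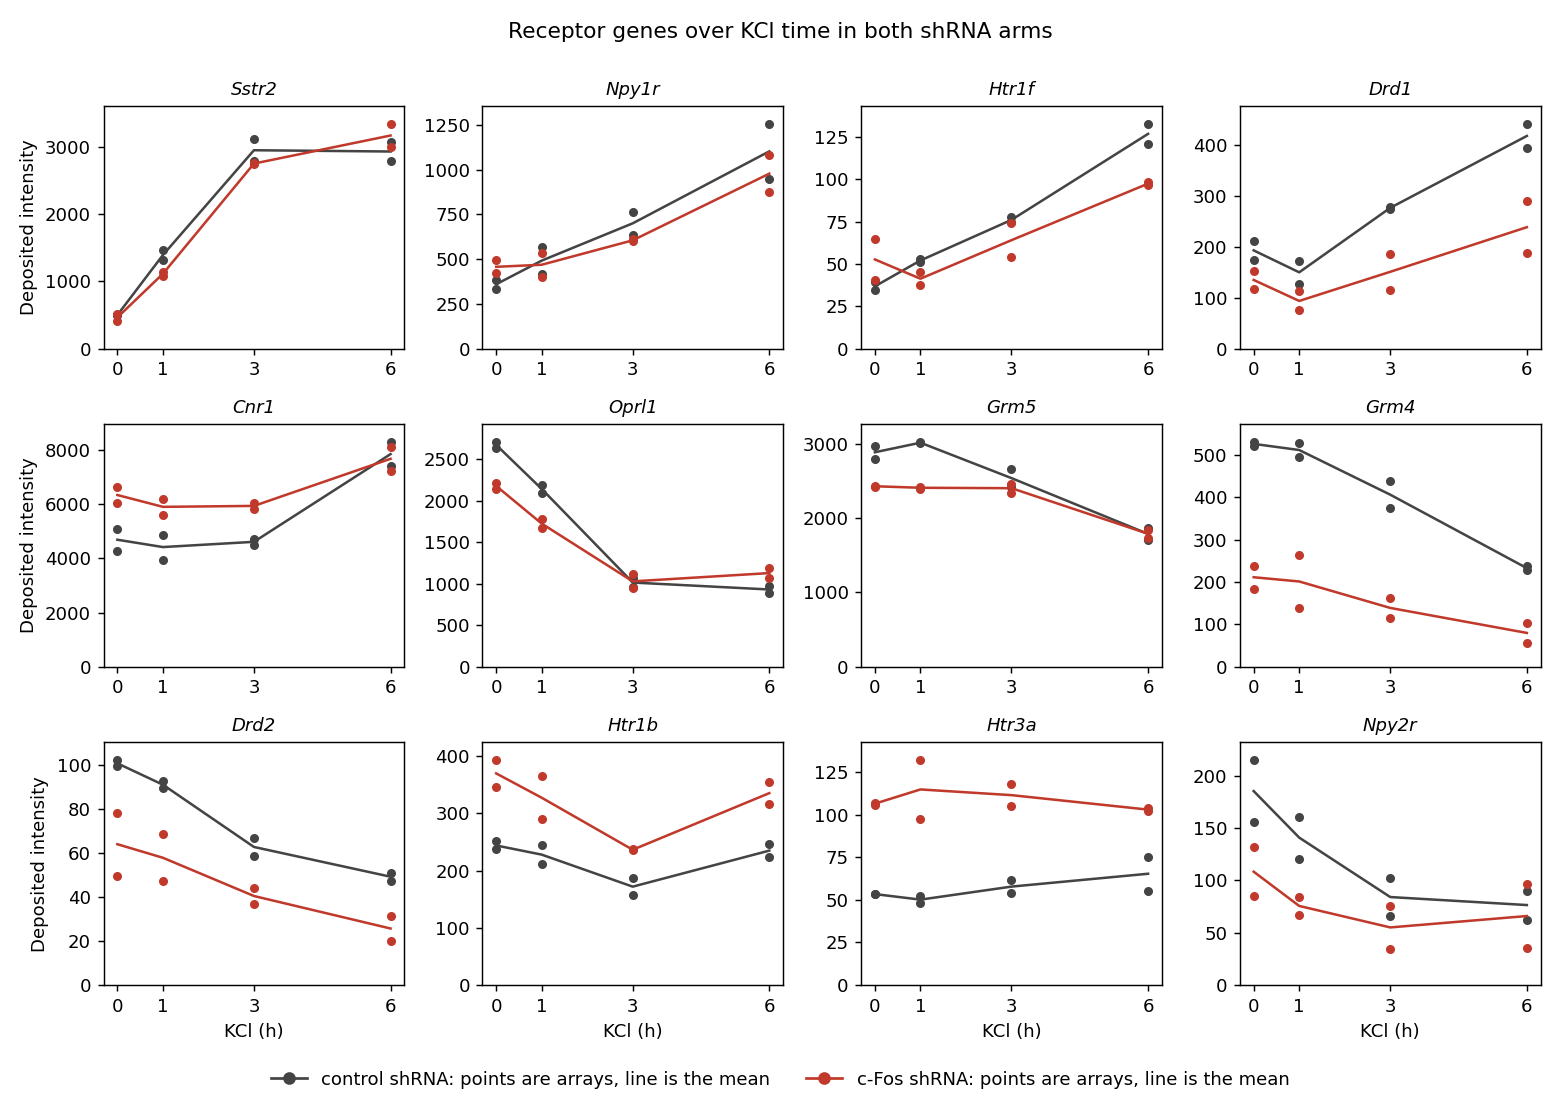
Deposited intensity (vertical axes from 0, each gene with its own scale) of 12 receptor genes over hours of KCl, with control shRNA in grey and c-Fos shRNA in red. Points are arrays and lines group means. The top row and Cnr1 hold genes that rose by 6 h with control shRNA, Oprl1, Grm5, Grm4, Drd2 and Npy2r fell, and Htr3a and Htr1b sit higher with c-Fos shRNA.

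The c-Fos shRNA arm differed from the control arm in a few receptor genes at all 4 times. Grm4 was lower, and Htr1b, Htr3a and the brightest Grm7 probe set were higher, at 0, 1, 3 and 6 h. At 0 h the called genes were Grm7, Htr3a, Htr1b and Cnr1, higher, and Grm4, Oprl1 and Grm5, lower. At 6 h they were Grm7, Grm2, Htr3a and Htr1b, higher, and Grm4, Drd1, Sstr4 and Drd2, lower.

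Of the 33 tested receptor genes, 7, 8, 7 and 8 were called at 0, 1, 3 and 6 h. Of all genes, 22.3%, 20.8%, 23.3% and 23.8% were called at these times, so the receptor shares were near the background. The 1 h count was 4 without c-Fos 1 h replicate 2 or control 1 h replicate 1, and the 3 h count 2 without c-Fos 3 h replicate 1 and 3 without control 3 h replicate 1. The 6 h count was 5 without control 6 h replicate 1 and 4 without any other array of its groups. On the average over the 4 times 11 were called, 5 higher and 6 lower, against 47.9% of all genes, 25.2% higher and 22.7% lower. The 4 genes called the same way at all times were 12.1% of the tested receptor genes, against 11.5% of all genes. With the replicate block the counts were 11, 13, 10 and 11, and 15 on the average, against 38.8%, 37.8%, 40.4%, 41.5% and 60.4% of all genes. The shRNA comparisons use the same arrays as the KCl comparisons.

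Grm7 differed by most. On the brightest probe set the difference was 1.28 ± 0.14 (SE) at 0 h (adjusted p = 5.42e-05), 1.59 at 1 h, 1.91 at 3 h and 1.99 at 6 h (adjusted p = 2.62e-06). The ratio of mean intensities, c-Fos to control shRNA, was 2.43 at 0 h and 4.21 at 6 h. Its second probe set gave -0.03, -0.48, -0.36 and -0.30 at these times, of which the 1 h value was called, lower. The brightest probe set of Grm7 thus carries each call of a higher level.

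Grm4 was lower by -1.24 ± 0.24 (SE) at 0 h (adjusted p = 0.00301), -1.27 at 1 h, -1.45 at 3 h and -1.47 at 6 h (adjusted p = 0.00104). The highest c-Fos shRNA array, 263, lay above the control arrays of 228 and 238 at 6 h, while at each single time the arms did not overlap. The control to c-Fos ratio of means was 2.49 at 0 h and 2.91 at 6 h. A single probe set was tested for Grm4.

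Htr3a encodes a subunit of the 5-HT3 channel, which in cortex is known from a class of inhibitory neurons. Its intensity with control shRNA was 53.2 and 53.6 at 0 h, 48 and 52.3 at 1 h, 61.7 and 53.9 at 3 h, then 75.2 and 55.5 at 6 h. Under c-Fos shRNA it was 106 and 107, then 132 and 97.7, 118 and 105, and 102 and 104. Every c-Fos shRNA array lay above every control array, although both arms were near the quiet level of 117. The difference was 0.85 ± 0.18 (SE) at 0 h (adjusted p = 0.00464), 0.98 at 1 h, 0.82 at 3 h and 0.58 at 6 h (adjusted p = 0.0339). The 3 h call was lost without c-Fos 3 h replicate 1 (adjusted p = 0.0561), and the 6 h call without either c-Fos array or control 6 h replicate 2 (adjusted p up to 0.223). Of 7 inhibitory neuron markers, 1 was called at 3 h, higher, and the median difference was -0.09 at 0 h. Their part in the Htr3a difference was not tested.

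Htr1b was higher by 0.58 ± 0.12 (SE) at 0 h (adjusted p = 0.00407), 0.51 at 1 h, 0.44 at 3 h (adjusted p = 0.0172) and 0.50 at 6 h. Its arrays at 1 h were 212 and 244 with control and 290 and 365 with c-Fos shRNA, and the arms did not overlap at any time. The calls at 1, 3 and 6 h were lost without c-Fos replicate 2 or control replicate 1 of that time, and at 3 h also without c-Fos replicate 1 (adjusted p up to 0.16). The second Htr1b probe set gave 0.15, 0.11, 0.07 and -0.13 and was not called.

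Cnr1 was higher at 0, 1 and 3 h, by 0.44 ± 0.11 (SE, adjusted p = 0.0106), 0.43 (adjusted p = 0.0122) and 0.37 (adjusted p = 0.0247), and differed by -0.03 at 6 h. These calls were lost without replicate 2 of the c-Fos group or replicate 1 of the control group at 0 or 1 h, and whichever array was left out at 3 h (adjusted p up to 0.144). The 3 h call was also lost without the intensity trend. The second Cnr1 probe set gave 0.05, 0.37 and -0.43 and was not called. Oprl1 was lower by -0.30 at 0 h (adjusted p = 0.0239) and by -0.30 at 1 h (adjusted p = 0.026), and differed by 0.25 at 6 h (adjusted p = 0.0554, and 0.0168 with the replicate block). Its probe set 1450486_a_at gave -0.38 at 0 h and 0.43 at 6 h, both called (adjusted p = 0.0179 and 0.00867), and -0.18 at 1 h, not called. Its probe set 1422099_a_at gave -0.19 and -0.11 at 0 and 1 h and was not called. The Oprl1 call at 0 h was lost without any 1 of its 4 arrays, and that at 1 h without c-Fos 1 h replicate 2 or either control array (adjusted p up to 0.146). On its brightest probe set Grm5 was lower by -0.25 at 0 h (adjusted p = 0.0135, and up to 0.0936 without replicate 2 of either arm, and lost with arrays shifted to one median) and by -0.31 at 1 h. Sstr2 was lower by -0.29 at 1 h (adjusted p = 0.0383), a call lost without c-Fos 1 h replicate 1, c-Fos 1 h replicate 2 or control 1 h replicate 1 (adjusted p up to 0.285) and with arrays not normalized further or shifted to one median.

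Drd1 was lower by -0.84 at 3 h (adjusted p = 0.0151) and by -0.82 at 6 h (adjusted p = 0.0184), and by -0.66 on the average over times. At 0 and 1 h its difference was -0.43 and -0.54 (adjusted p = 0.199 and 0.11, and 0.0369 and 0.0118 with the replicate block). The second Drd1 probe set gave -0.41 at 3 h, -0.55 at 6 h and -0.33 on the average (adjusted p = 0.344, 0.188 and 0.069), so each of these Drd1 calls rests on the brightest probe set. Drd2 was lower by -0.64 at 6 h (adjusted p = 0.0366), Sstr4 by -0.74 at 6 h (adjusted p = 0.0347), and Npy2r by -0.55 on the average (adjusted p = 0.0229). The Npy2r call was lost without c-Fos replicate 1 at 0 or 3 h or control replicate 2 at any time (adjusted p up to 0.0581). Grm2 was higher by 0.76 at 3 h (adjusted p = 0.00608) and by 0.60 at 6 h (adjusted p = 0.0229). The 3 h calls of Drd1 and Grm2 were lost without c-Fos 3 h replicate 1 or control 3 h replicate 1, and that of Drd1 also without control 3 h replicate 2 (adjusted p up to 0.16). The 6 h calls were lost without c-Fos 6 h replicate 1 (Drd1, Sstr4, Grm2), c-Fos 6 h replicate 2 (Drd2, Sstr4), control 6 h replicate 1 (Drd1, Drd2) or control 6 h replicate 2 (Drd2, Sstr4, Grm2), with adjusted p up to 0.255. Drd2 at 6 h was also not called with a pseudocount of 64, and Sstr4 at 6 h with arrays not normalized further. Excitatory neuron markers were lower too, with 3 of 7 called at 0 h and summed intensities of 21465 and 22588 with c-Fos shRNA against 27959 and 27714 with control shRNA. At 6 h 1 of 7 was lower and 1 higher, with sums of 26443 and 25541 against 28876 and 27950. Their part in the receptor differences was not tested.

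A difference between the arms in their response to KCl was tested as an interaction, the change in the c-Fos arm minus the change in the control arm. On the brightest probe sets no receptor gene was called in limma at 1, 3 or 6 h, or by an F test over the 3 times, where 0.0431%, 0.402%, 1.24% and 0.87% of all genes were called. At an unadjusted p under 0.05 these tests gave 0, 3, 7 and 6 receptor genes. Oprl1 came nearest, at 0.55 ± 0.12 (SE) at 6 h (adjusted p = 0.052, and 0.00503 with the replicate block). It fell by 1.49 with control shRNA and by 0.94 with c-Fos shRNA on the log2 scale. Another Oprl1 probe set, 1450486_a_at, was called for the 6 h interaction without the block, at 0.81 ± 0.14 (SE, adjusted p = 0.0273 over all probe sets). Its remaining tested probe set, 1422099_a_at, gave 0.39 and was not called (adjusted p = 0.554).

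With the replicate block in limma, 0 receptor genes were called at 1 h (4 at an unadjusted p under 0.05). At 3 and 6 h it called 4 and 8 of them, and the F test 7. Of all genes it was 0.201%, 4.02%, 11.4% and 10.1%. At 6 h the interaction was 0.71 for Grm7 (block adjusted p = 0.00238), -0.71 for Sstr4 (0.00278), 0.65 for Htr2c (0.00598), 0.84 for Grm2 (0.0177), -0.51 for Npy1r (0.0193), -0.47 for Cnr1 (0.0339) and 0.27 for Grm5 (0.0425), besides Oprl1. On the brightest probe sets, Oprl1, Grm5 and Grm7 fell less with c-Fos shRNA, and Npy1r and Cnr1 rose less, by this fit. Without the block, the second probe sets gave -0.27 for Grm7 and 0.03 for Npy1r at 6 h. Those of Cnr1 and Grm5 gave -0.47 and 0.46, in the direction of their brightest probe sets. None of these second probe sets was called, but they were not fitted with the block. Sstr4 changed by -0.19 with control and -0.90 with c-Fos shRNA.

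Htr2c, the Gq-coupled 5-HT2C receptor gene, shows what the block does. Its intensity with control shRNA was 283 and 567 at 0 h, 308 and 626 at 1 h, 256 and 563 at 3 h, then 149 and 304 at 6 h. In the c-Fos arm it read 314 and 671, then 319 and 732, 264 and 642, and 247 and 614. Replicate 2 was the higher array in all 8 groups, by 0.94 to 1.23 on the log2 scale, and within each replicate number the lowest array was control shRNA at 6 h. The 6 h change with control shRNA was -0.80 (adjusted p = 0.327, and 1.69e-06 with the replicate block), and the shRNA difference at 6 h was 0.85 (adjusted p = 0.365, and 2.98e-06 with the block). Chrm1 was similar, at 380 and 554 at 0 h, 319 and 491 at 1 h, 276 and 378 at 3 h, then 596 and 780 at 6 h with control shRNA. Its c-Fos shRNA arrays gave 342 and 602, then 271 and 483, 227 and 340, and 435 and 480. Replicate 2 was again the higher array in all 8 groups. The 6 h change of Chrm1 with control shRNA was 0.64 (adjusted p = 0.12, and 0.000581 with the block). At 3 h the block called Chrm1 lower in both arms, and at 6 h it made no KCl call with c-Fos shRNA. Adra2c, the Gi-coupled alpha 2C adrenoceptor gene, was 300 and 256 at 0 h, 303 and 306 at 1 h, 285 and 259 at 3 h, then 310 and 215 at 6 h with control shRNA. Its c-Fos shRNA arrays gave 225 and 224, then 305 and 194, 188 and 216, and 259 and 197. The arms overlapped at 1 and 6 h. The difference averaged over times was -0.28, called only with the block (adjusted p = 0.0607, and 0.00581 with the block). A second Adra2c probe set, 1422335_at, gave 0.03 on the average and was not called (adjusted p = 0.87).

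Beside these genes, markers of other cells differed by replicate number. Oligodendrocyte lineage markers summed to 9194 to 13028 on the replicate 1 arrays and 13656 to 17588 on the replicate 2 arrays, and vascular and fibroblast markers to 780 to 966 and 1741 to 1966. Their part in the Htr2c and Chrm1 values was not tested. Of the 33 tested receptor genes, 27.3% were higher, or lower, in replicate 2 in all 8 groups, against 27.2% of all genes.

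**Figure D5:**
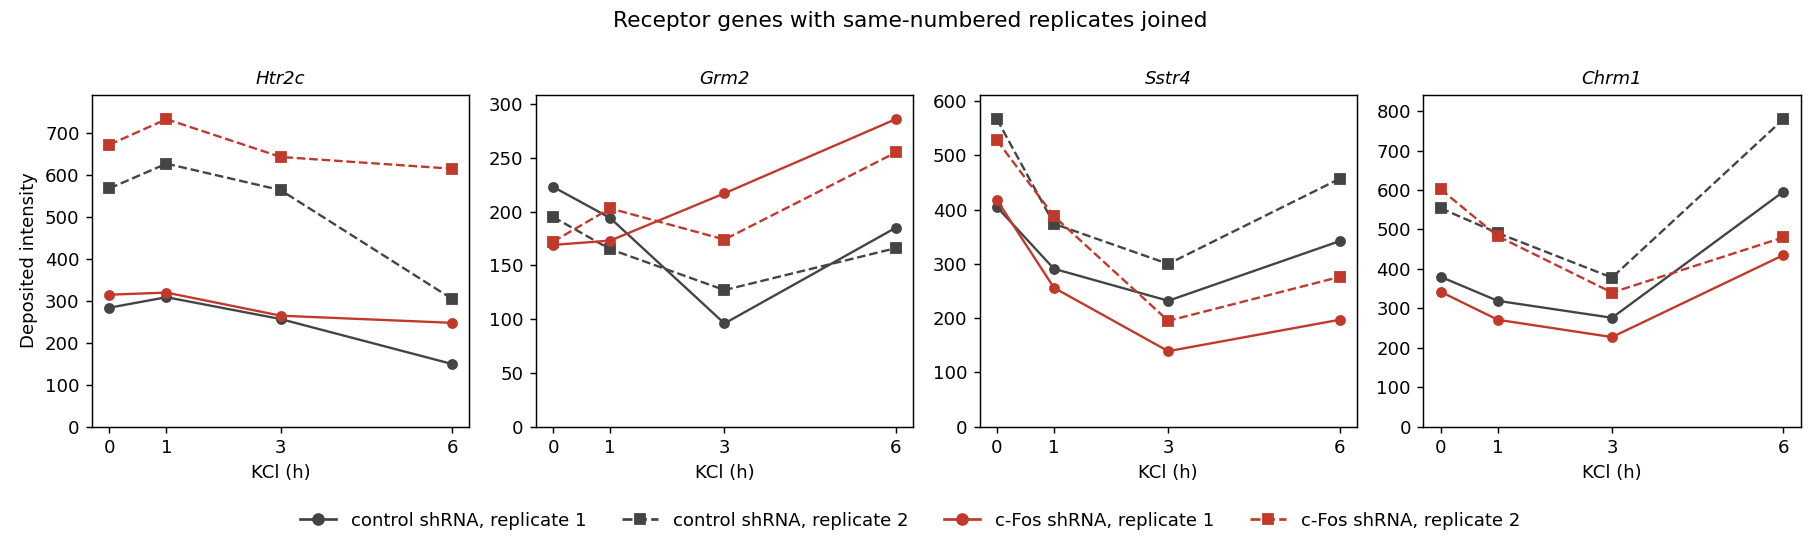
Deposited intensity (vertical axes from 0) of Htr2c, Grm2, Sstr4 and Chrm1 over hours of KCl, with arrays of the same replicate number joined by a line (circles and full lines for replicate 1, squares and dashed lines for replicate 2). Grey is control shRNA and red c-Fos shRNA. In Htr2c the replicate 2 lines lie above the replicate 1 lines throughout, and the control shRNA lines drop at 6 h in both.

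Genes of the same pathways were read from lists, and their counts of calls stand beside the 44.1% (control) and 41% (c-Fos) of all genes called at 6 h. Of 8 tested genes for peptide ligands of these receptors, 5 were called at 6 h with control shRNA and 4 with c-Fos shRNA, each of them higher. Their median change was 0.57 and 0.69, beside -0.07 and -0.06 for all genes. Pnoc, the precursor of the Oprl1 ligand nociceptin, rose by 2.13 and 1.63, while Oprl1 fell. Cort, the precursor of cortistatin, a ligand of somatostatin receptors, rose by 1.16 and 1.75 while Sstr2 rose, and Penk, the enkephalin precursor, by 1.43 and 1.16. Inhibitory neuron markers rose as well, 4 of 7 with control and 5 of 7 with c-Fos shRNA at 6 h. Their summed intensity went from between 11745 and 13128 at 0 h to between 15292 and 16776 at 6 h, and their part in the receptor and ligand changes was not tested.

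Downstream of the receptors, Kcnj3, a G protein-gated potassium channel subunit, rose by 1.95 at 6 h with control shRNA and by 1.67 with c-Fos shRNA, as 1 of 3 tested genes of its list. Grk5, a kinase that desensitises receptors, rose by 2.13 and 1.99, as 1 of 6 kinases and arrestins, while Grk6 fell by 0.23 with control shRNA. With c-Fos shRNA Grk3 fell by 0.70 and Arrb2, an arrestin, by 0.35. Grasp, a scaffold that binds group I metabotropic glutamate receptors, rose by 3.61 and 2.35, with 4 of 8 scaffold genes higher and 2 lower in each arm. Its interaction was called in limma without the block at 1, 3 and 6 h, where 0.0431%, 0.402% and 1.24% of all genes were. It was -1.01, -1.19 and -1.26 (adjusted p = 0.027, 0.00309 and 0.00204). Of 13 adenylyl cyclases and beta phospholipases C, 3 rose and 3 fell at 6 h with control shRNA, among them Adcy8, by 1.56. With c-Fos shRNA 2 rose and 3 fell. Of 23 G protein subunits, 6 rose and 2 fell with control shRNA, led by Gng11 at 0.50, while 1 rose and 3 fell with c-Fos shRNA. Of 11 endocannabinoid and adenosine enzymes and transporters, 2 rose and 1 fell with control shRNA. Among them was Nt5e, the enzyme that makes adenosine outside the cell, by 0.87. With c-Fos shRNA 3 of the 11 rose and 2 fell.

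Between the arms at 0 h, where 22.3% of all genes were called, 7 of the 23 G protein subunits were higher and 4 lower with c-Fos shRNA, with Gng7 at 1.71 (adjusted p = 6.46e-07) and Gng4 at -1.42 (adjusted p = 0.00342). Of the 13 cyclases and phospholipases, 5 were higher and 1 lower, with a median of 0.48 beside 0.02 for all genes. Adcy9 was higher by 0.96 and Adcy5 by 0.82, and Plcb1, a Gq effector, was lower by -0.92 (adjusted p = 4.9e-06). Kcnj3 was higher by 0.94 (adjusted p = 0.00476). Of the peptide ligand genes, Pnoc was lower by -0.87 and Cort higher by 0.56 at 6 h.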

How the data were processed

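The authors' deposited values are intensities on a linear scale, 1 for each probe set on each Affymetrix mouse genome 430 2.0 array. Affymetrix processing is named per the labels' protocols, while the tool that summarized and scaled the probe values was not given in the sources used here. No detection calls were used. The medians of the arrays ran from 104.75 to 118.56, a difference of 13.2%, so log2(intensity + 16) was quantile normalized. Fold changes on this scale understate the change of dim genes. Of 45101 probe sets, 64 were controls, 34945 named 1 gene, 932 several and 9160 none, and 34741 matched a RefSeq gene. A probe set that names several genes, 1 of them with a receptor symbol, was left out. A gene was read through its brightest probe set. Means above the 30th percentile of probe sets were tested, which left 13916 genes.

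limma 3.58.1 (R 4.3.3; lmFit, eBayes with an intensity trend) fitted 8 group means to 16 arrays, with 8 residual degrees of freedom. P-values were adjusted by Benjamini-Hochberg over all genes of a comparison. The fit was tested on simulated data with independent noise on each array. That test thus does not cover the shared deviations of same-numbered replicates. Intensities in the text are as deposited, and changes, standard errors and p-values are from this fit. Values of other probe sets come from a fit of all 26083 tested probe sets, with p-values adjusted over these. The number of arrays limits the precision.

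The replicate numbers come from the labels. Between groups, the replicate difference correlated over 0.1 in 28 of 28 pairs of groups (0.36 to 0.60, median 0.48), so the numbers were taken to pair the arrays. The receptor genes, the gene lists and the tests were chosen with earlier results of these data known. Values in every array are given for receptor genes called in a KCl, shRNA or interaction comparison with a log2 change of at least 0.5, to at most 25, and for the brightest tested gene of each family. A list names at most its 3 largest called changes. Genes singled out beside this rule, such as Npy5r and Htr5a, were chosen after their values were seen. Alternatives were other normalizations, pseudocounts of 1 and 64, no filter, no trend, other probe sets, the replicate block and each array left out. With an array left out, the fit held no block and its group kept 1 array. The shared deviation of a replicate number then enters the changes of that group.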

Additional observations from a re-analysis of the deposited data

Results flagged for a closer look

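With the replicate block, the KCl response of 8 receptor genes differed between the arms by the interaction test, 4 at 3 h and 8 at 6 h, where 4.02% and 11.4% of all genes did. Values are log2 changes, KCl with c-Fos shRNA minus KCl with control shRNA, with the block's adjusted p in limma. At 3 h they were 0.99 ± 0.21 (SE) for Grm2 (adjusted p = 0.0126), 0.63 for Grm7 (0.0102), -0.53 for Npy1r (0.0291) and -0.59 for Sstr4 (0.0163). At 6 h they were -0.47 ± 0.13 (SE) for Cnr1 (adjusted p = 0.0339), 0.84 for Grm2 (0.0177), 0.27 for Grm5 (0.0425), 0.71 for Grm7 (0.00238), 0.65 for Htr2c (0.00598), -0.51 for Npy1r (0.0193), 0.55 for Oprl1 (0.00503) and -0.71 for Sstr4 (0.00278). Without the block no receptor gene was called for an interaction in limma on its brightest probe set, with 3 at 3 h and 7 at 6 h at an unadjusted p under 0.05. The values are those of the brightest probe sets. The Oprl1 probe set 1450486_a_at was called at 6 h without the block (0.81, adjusted p = 0.0273), and 1422099_a_at was not (0.39, adjusted p = 0.554). Without the block, the second Grm7 probe set gave -0.33 at 3 h and -0.27 at 6 h, and that of Npy1r -0.04 and 0.03. At 6 h those of Cnr1 and Grm5 gave -0.47 and 0.46, in the direction of their brightest probe sets. None of these second probe sets was called, but they were not fitted with the block.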

How the results depend on the processing

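Counts of called receptor genes moved by more than 1.5 times under these settings. Arrays not normalized further gave 1 at 1 h of KCl in each arm, against 3 (control) and 2 (c-Fos), and arrays shifted to one median gave 1 at 1 h with c-Fos shRNA. The replicate block, which pairs arrays by number, gave 5 and 4 at 1 h of KCl, 15 and 11 at 3 h, 11 and 13 for the shRNA at 0 and 1 h, and 7 for the interaction F test. It ended no call of a named gene. The quiet probe sets gave 23 genes near background, against 13 by the filter. With each array left out in turn, KCl counts ran from 1 to 2 (control, 1 h), 1 to 1 (c-Fos, 1 h), 5 to 9 and 5 to 6 (3 h), and 11 to 12 and 9 to 11 (6 h). The control 3 h count was 5 without control 0 h replicate 2 or control 3 h replicate 1. The shRNA counts were 5 to 6 at 0 h, 4 to 8 at 1 h, 2 to 5 at 3 h, 4 to 5 at 6 h and 9 to 13 on the average, with 0 to 0 for the F test. The lowest at 3 h came without c-Fos 3 h replicate 1, and the lowest at 1 h without c-Fos 1 h replicate 2 or control 1 h replicate 1. At 6 h the count was 4 without either c-Fos array or control replicate 2.

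Of 86 called changes of named genes, none turned direction outside the other probe sets. No filter, a pseudocount of 1 and the block ended 0 of these calls, a pseudocount of 64 and no trend each ended 2 calls, and both other normalizations 6 each. Leaving out arrays ended 97 of 476 calls so refitted. Of 56 values from other probe sets, 27 were no longer called and 13 turned. For Grm7 (1458861_at) these were 0.91, 1.67 and 1.64 for KCl with control shRNA at 1, 3 and 6 h, 1.34 and 1.37 with c-Fos shRNA at 3 and 6 h, and -0.03, -0.48, -0.36 and -0.30 for the shRNA at 0, 1, 3 and 6 h, with -0.30 on the average. For Cnr1 (1419425_at) they were -0.43 for the shRNA at 3 h and -0.11 on the average, and for Htr1b (1422288_at) -0.13 at 6 h. The cause was not tested. Dim genes are limited by signal over background: 10 tested receptor genes were at or below the quiet level.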
